A study of Mus musculus with 6 samples.

Results

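The 10 genes described here encode transcription factors that direct the making and the identity of lymphocytes: Ikzf1, Ikzf3, Irf8, Irf4, Spib, Tcf7, Lef1, Ets1, Runx3 and Bach2. They were taken by gene symbol, and all 10 were found among the 52636 genes of the count tables. The list was chosen by its symbols with fold changes of the same comparison already known, in which T and B cell genes stood higher in irradiated glands. Every irradiated-against-untreated value below is therefore a description and supports no claim about lymphocyte genes as a group. RNA came from the parotid, the salivary gland that makes most of the amylase of saliva, of FVB mice, an inbred strain, aged 28 days. One group of 3 libraries was untreated, and the other group of 3 came from mice given 1 radiation dose of 5 Gy. No transgene, allele or other agent is named for either group, and the time from irradiation to collection was not given in the sources used here. Nothing says that each library came from its own mouse, so spreads and calls measure the variation between these libraries, which may be technical.

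Lymphocyte development is set by small sets of such factors. Ikzf1 (Ikaros) and Ikzf3 (Aiolos) are zinc finger proteins of the lymphoid line, Irf8, Irf4 and Spib act in B cells and in dendritic cells, and Irf4 also drives plasma cell formation. Tcf7 (TCF-1) and Lef1 are DNA-binding partners of beta-catenin that mark naive and memory T cells, Runx3 supports cytotoxic T cells, Ets1 serves T and B cells, and Bach2 is a repressor that holds lymphocytes back from terminal differentiation. Several are not confined to lymphocytes: Irf8 is also a factor of macrophages, and Ets1 of endothelium. In a whole gland, more lymphocytes and more RNA per lymphocyte cannot be told apart.

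The stretches before the start sites are shown first for 4 factors, because they span the range of the response: Ikzf1 had the largest difference between the groups, Bach2 the smallest, and Irf8 and Spib lie between. RefSeq entries of the build GRCm38.p6 were found for 8 of the 10 genes. Each line gives the 250 bases before a start site, 5′ to 3′ on the gene's strand, and none of these 5 stretches overlaps an exon of the GENCODE M21 annotation. Capitals mark matches, on either strand, to the letters bound by the families studied here: AGGAAG (ETS), GGAA with GAAA after any 2 bases (ETS with IRF), GAAA with GAAA after any 2 bases (IRF), TGTGGT (RUNX), TGGGAA (Ikaros) and CTTTGA (TCF and LEF). The ETS with IRF letters can share bases with those of ETS and of IRF.
Ikzf1 first start (chr11:11685675-11685924, plus strand): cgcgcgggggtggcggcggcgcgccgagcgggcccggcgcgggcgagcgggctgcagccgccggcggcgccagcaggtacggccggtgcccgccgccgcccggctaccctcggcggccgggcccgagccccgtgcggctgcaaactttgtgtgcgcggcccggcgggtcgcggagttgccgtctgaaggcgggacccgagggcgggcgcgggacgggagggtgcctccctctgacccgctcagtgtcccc
Ikzf1 second start (chr11:11689927-11690176, plus strand): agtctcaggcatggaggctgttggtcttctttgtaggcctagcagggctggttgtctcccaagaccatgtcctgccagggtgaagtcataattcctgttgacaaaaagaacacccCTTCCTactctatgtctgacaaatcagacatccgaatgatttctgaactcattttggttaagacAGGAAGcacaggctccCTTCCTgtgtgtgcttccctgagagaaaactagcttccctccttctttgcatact
Irf8 (chr8:120736108-120736357, plus strand): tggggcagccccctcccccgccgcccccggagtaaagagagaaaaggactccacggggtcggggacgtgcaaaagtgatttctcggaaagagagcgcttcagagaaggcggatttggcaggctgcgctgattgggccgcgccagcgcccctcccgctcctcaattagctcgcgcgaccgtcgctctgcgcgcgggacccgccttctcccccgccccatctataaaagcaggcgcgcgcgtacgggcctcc
Spib (chr7:44532072-44532321, minus strand): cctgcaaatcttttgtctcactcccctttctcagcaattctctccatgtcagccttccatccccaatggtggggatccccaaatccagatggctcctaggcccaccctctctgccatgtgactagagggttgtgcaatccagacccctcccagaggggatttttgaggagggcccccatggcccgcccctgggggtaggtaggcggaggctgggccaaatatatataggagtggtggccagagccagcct
Bach2 (chr4:32417185-32417434, plus strand): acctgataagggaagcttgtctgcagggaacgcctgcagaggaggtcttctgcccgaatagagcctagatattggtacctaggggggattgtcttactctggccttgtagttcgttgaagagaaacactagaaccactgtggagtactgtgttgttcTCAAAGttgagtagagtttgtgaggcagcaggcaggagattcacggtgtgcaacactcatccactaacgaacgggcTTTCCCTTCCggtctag
The first Ikzf1 stretch, the Irf8 stretch and the Spib stretch hold none of these letters, and the second Ikzf1 stretch holds 3 ETS matches. The Irf8 stretch shown belongs to the first listed start of that gene. The stretch of a second Irf8 start, not shown, holds 1 Ikaros match. The Bach2 stretch holds 1 TCF and LEF match and 1 ETS with IRF match. The annotated Bach2 gene begins at 32238804, so this stretch lies inside the gene, before an internal start site. The annotated Ikzf1 gene begins at 11685003, so both Ikzf1 stretches lie inside that gene too. Over the first listed start site of the 8 genes, ETS and IRF letters were found in 0 of 8, and each of the ETS with IRF, RUNX, Ikaros and TCF and LEF letters in 1 of 8. Among all 32851 stretches of that length the shares were 29.5% for ETS, 2.98% for IRF, 2.3% for ETS with IRF, 14% for RUNX, 21.6% for Ikaros and 13.8% for TCF and LEF. These matches describe the letters alone.

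Counts in genes came to 7108359 to 15036193 per library, and the acinar proteins Amy1 and Bpifa2 were abundant in each, as fits the label. A pair of libraries stood apart, the first of them by marker genes chosen with results of these data known. In untreated replicate 2 the 20 T cell markers summed to 3.15 CPM (read counts scaled to 1000000 per library with a composition factor), against 35.7 and 32.2 in the other untreated libraries, and 13 of the 20 had fewer than 2 counts. Irradiated replicate 2 had the fewest reads and held 377 counts of Smgc and 3678 of Prol1, secretory products of other glands. The other 5 libraries held 0 to 1 and 380 to 601. Fold changes of the factors are given with and without each of these libraries.

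Ikzf1, Irf8 and Ikzf3 rose in irradiated glands, 3 of the 10 factors (edgeR's quasi-likelihood test, adjusted over all 12885 genes tested). In the same test 0.652% of all genes were called higher. None of the 10 was called lower, where 0.349% of all genes were, and none had an unadjusted p under 0.05 in that direction either. DESeq2 also called none lower. At an unadjusted p under 0.05, 6 of the 10 were higher, against 7.51% of all genes. The median log2 fold change of the 10 was 1.44, and that of all genes tested was -0.01. Without untreated replicate 2 the median was 1.00.

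**Figure D1:**
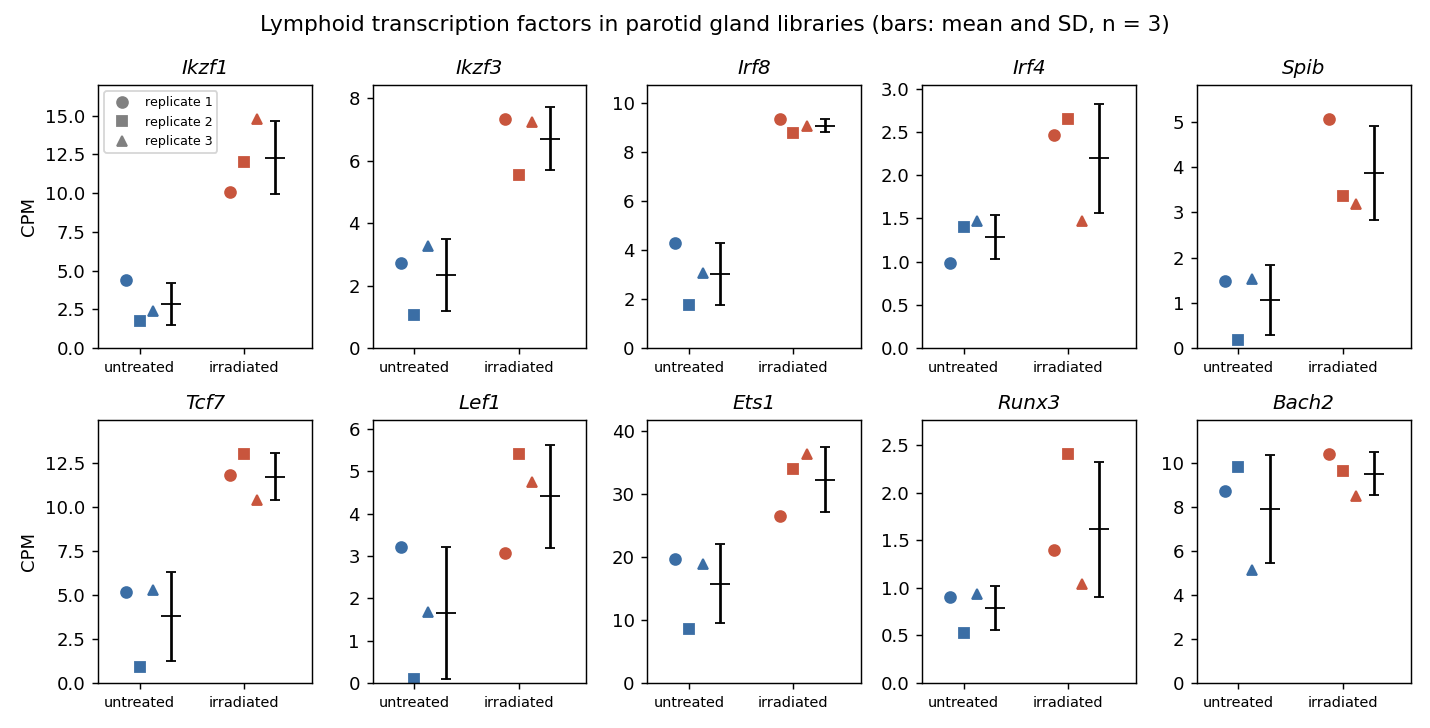
CPM of each factor (linear axes from 0) in the 3 untreated and 3 irradiated libraries, with the symbol shape giving the replicate and bars the mean and SD of each group. Untreated replicate 2 is the lowest library for 8 factors but not for Irf4 or Bach2, and Lef1 and Bach2 are the factors whose groups overlap.

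Ikzf1, Ikaros, had the largest difference of the 10 (ENSMUSG00000018654, chromosome 11, 11685003 to 11772926, build mm10). Its level was 4.36, 1.75 and 2.40 CPM in untreated replicates 1, 2 and 3 and 10.1, 12.0 and 14.8 CPM in the irradiated ones. Each irradiated library held more than any untreated library. The means were 2.84 ± 1.36 and 12.3 ± 2.37 CPM (SD, n = 3 each), a log2 fold change of 2.11 (SE 0.27), or 4.31-fold. The call was made in each of the 15 alternative analyses, with log2 fold changes from 1.87 to 2.54.

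Irf8 (ENSMUSG00000041515, chromosome 8, 120736358 to 120756694) was the most even of the factors after irradiation. It stood at 4.28, 1.75 and 3.07 CPM in untreated glands and at 9.32, 8.78 and 9.07 CPM after irradiation. The groups did not overlap, and the irradiated libraries differed by a coefficient of variation of 2.99%, against 41.7% for the untreated. The log2 fold change was 1.57 (SE 0.25), with the call made in each of the 15 alternatives.

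Ikzf3, Aiolos (ENSMUSG00000018168, chromosome 11, 98464902 to 98546031), stood at 2.72, 1.05 and 3.27 CPM without irradiation and at 7.33, 5.53 and 7.25 CPM with it. The log2 fold change was 1.50 (SE 0.31). This call was less firm than those of Ikzf1 and Irf8: leaving out untreated replicate 1 or 2, or irradiated replicate 1 or 3, ended it, with log2 fold changes of 1.59, 1.17, 1.43 and 1.44. It was also lost with limma-voom, without robust shrinkage, and without both replicates numbered 2.

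The remaining B cell factors did not pass. Spib, an ETS factor of B cells and plasmacytoid dendritic cells, had 18, 2 and 23 counts in untreated glands against 76, 28 and 37 after irradiation, or 1.48, 0.175 and 1.53 CPM against 5.06, 3.37 and 3.20 CPM. The groups did not overlap, and the log2 fold change was 1.83 (SE 0.48), or 1.37 (SE 0.365) without untreated replicate 2. Irf4 had 12, 16 and 22 counts against 37, 22 and 17, at 0.988, 1.40 and 1.47 CPM against 2.46, 2.65 and 1.47 CPM. The highest untreated and the lowest irradiated library were thus level to the digits given, and the log2 fold change was 0.76 (SE 0.41). Bach2 had the smallest difference, at 8.72, 9.79 and 5.14 CPM against 10.4, 9.62 and 8.46 CPM. Its groups overlapped, and its log2 fold change was 0.28 (SE 0.21).

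Of the T cell factors, Tcf7 stood at 5.18, 0.874 and 5.27 CPM in untreated glands and at 11.8, 13.0 and 10.4 CPM after irradiation. The groups did not overlap, but untreated replicate 2 lay 5.98-fold below the mean of the other untreated libraries. The log2 fold change was 1.60 (SE 0.57) with all libraries and did not pass. Without untreated replicate 2 it was 1.16 (SE 0.20) and passed. Lef1 had 39, 1 and 25 counts against 46, 45 and 55, at 3.21, 0.0874 and 1.67 CPM against 3.06, 5.41 and 4.75 CPM. Untreated replicate 1 exceeded irradiated replicate 1, so the groups overlapped, and the log2 fold change was 1.38 (SE 0.82) with all libraries and 0.85 (SE 0.36) without untreated replicate 2, neither of which passed.

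Ets1 was the most abundant of the 10 by counts, at 19.8, 8.57 and 18.9 CPM against 26.4, 33.9 and 36.4 CPM. The groups did not overlap. The log2 fold change was 1.02 (SE 0.36), which did not pass, and 0.73 (SE 0.15) without untreated replicate 2, which did. Runx3 had 11, 6 and 14 counts against 21, 20 and 12, at 0.905, 0.525 and 0.934 CPM against 1.40, 2.41 and 1.04 CPM. Its groups were separated by a narrow gap, and its log2 fold change of 0.97 (SE 0.49) did not pass.

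In all, the irradiated libraries lay above every untreated library for 8 of the 10 factors, Irf4 by a margin below the digits printed, against 10.6% of all genes tested. Without untreated replicate 2 edgeR called 4 of the 10, Ikzf1, Irf8, Tcf7 and Ets1, where it called 0.42% of all genes. DESeq2 on all libraries called 5 (0.94% of all genes), the 3 above with Spib and Ets1. With no filter on low counts edgeR called 6 (1.1% of all genes), the same 5 and Lef1.

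**Figure D2:**
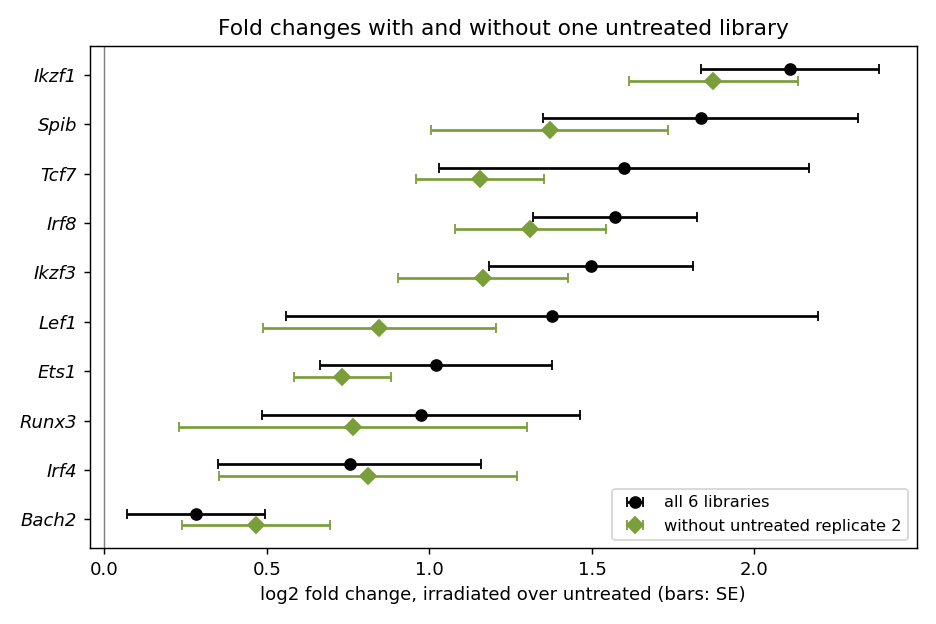
Log2 fold change of each factor, irradiated over untreated, with bars for its SE, in the fit of all 6 libraries and in the fit without untreated replicate 2. The values run from 0.28 for Bach2 to 2.11 for Ikzf1, and leaving out that library moves Tcf7, Lef1 and Spib down by more than it moves Ikzf1.

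The factors not yet given without untreated replicate 2 had log2 fold changes there of 1.87 for Ikzf1, 1.31 for Irf8, 0.81 for Irf4, 0.77 for Runx3 and 0.47 for Bach2. Without irradiated replicate 2 the same 3 factors were called as with all libraries, at 2.12 for Ikzf1, 1.59 for Irf8 and 1.61 for Ikzf3. The others stood at 1.92 for Spib, 1.53 for Tcf7, 1.21 for Lef1, 0.98 for Ets1, 0.62 for Irf4, 0.62 for Runx3 and 0.27 for Bach2. Runx3, with its highest level in that library, had a log2 fold change of 0.97 with all libraries.

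The spread among untreated glands split the factors. Relative to the mean of untreated replicates 1 and 3, replicate 2 was 27.9-fold lower for Lef1, 8.62-fold for Spib and 5.98-fold for Tcf7, the first of these from a single count. It was 2.85-fold lower for Ikzf3, 2.26-fold for Ets1, 2.10-fold for Irf8, 1.93-fold for Ikzf1 and 1.75-fold for Runx3. Irf4 and Bach2 were not low there: Irf4 was between the other untreated libraries and Bach2 was the highest of the 3. The same pair followed the other factors least across all 6 libraries. Pearson's correlation of log2 CPM with the mean standardized profile of the other 9 factors was 0.18 for Bach2 and 0.59 for Irf4, and 0.86 to 0.98 for the rest. These correlations describe 6 libraries that share the group difference and untreated replicate 2.

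Levels were compared between genes per length, as TPM (counts per base of exon, scaled to 1000000 per library). In untreated glands Ets1 stood highest at 2.89 ± 1.24 TPM (SD, n = 3), followed by Tcf7 at 2.26 ± 1.55, Bach2 at 1.20 ± 0.30 and Ikzf1 at 0.753 ± 0.342 TPM. Below these came Irf8 at 0.664, Spib at 0.584, Ikzf3 at 0.420, Irf4 at 0.406, Lef1 at 0.291 and Runx3 at 0.245 TPM. None of the 9 neighbouring pairs in that order was separated by its libraries. In irradiated glands the order began with Tcf7 at 8.18 ± 1.85 TPM and Ets1 at 6.91 ± 1.31, then Ikzf1 at 3.84 ± 0.64, Spib at 2.45 ± 0.67 and Irf8 at 2.33 ± 0.23 TPM. Bach2 followed at 1.74 TPM, then Ikzf3 at 1.38, Lef1 at 0.920, Irf4 at 0.829 and Runx3 at 0.606 TPM. Here 3 neighbouring pairs did not overlap: Ets1 above Ikzf1, Irf8 above Bach2, and Ikzf3 above Lef1. Bach2 went from the third place to the sixth, and Ikzf1 from the fourth to the third.

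Lists of cell markers were read in the same libraries. The 20 T cell markers summed to 3.15 to 35.7 CPM in untreated and 68.1 to 97.8 CPM in irradiated glands, and the 15 B cell markers to 16.1 to 56.0 and 93.8 to 104.3 CPM. Of those tested, 2 of 19 T cell markers (Cd5 and Cd8b1) and 2 of 13 B cell markers (Fcrl1 and Bank1) were called higher. At an unadjusted p under 0.05, 11 T cell and 8 B cell markers were higher, against 7.51% of all genes. DESeq2 called 4 of each list higher, against 0.94% of all genes. Cd5 and Bank1 passed without untreated replicate 2 and without irradiated replicate 2, and Cd8b1 and Fcrl1 passed in neither fit. In untreated replicate 2, 6 T cell markers and 5 B cell markers had no count, among them the receptor chains Cd3g and Cd79a. Macrophage and dendritic cell markers summed to 187.9 to 219.8 CPM in untreated and 212.2 to 213.4 CPM in irradiated glands. Of 16 tested, 0 were called by edgeR or DESeq2. At an unadjusted p under 0.05, 2 were higher and 1 lower, against 968 and 961 of all 12885 genes tested. Within that list, and named after its values were seen, Xcr1, a marker of the dendritic cells that depend on Irf8, had 3, 2 and 6 counts against 32, 9 and 13, a log2 fold change of 2.35 (SE 0.58) that did not pass. Other markers of the same dendritic cells, too sparse to be tested, overlapped between the groups: Clec9a had 4, 7 and 8 counts against 16, 4 and 0, and Batf3 1, 4 and 2 against 3, 2 and 3. Among the list's further dendritic cell genes, Flt3 and Siglech were higher in CPM in each irradiated library, and Itgax, Ccr9 and Cd209a overlapped. Flt3, not tested, had 3, 0 and 2 counts against 8, 9 and 11. Siglech had 21, 4 and 25 against 29, 18 and 33, at 0.86 (SE 0.46), which did not pass. The most abundant genes of this list were Lyz2, the lysozyme of myeloid cells, at 0.43 (SE 0.15), and Csf1r, the receptor of macrophage growth factor, at -0.29 (SE 0.12) on the log2 scale. Endothelial markers, read because of Ets1, summed to 91.9 to 106.1 and 99.9 to 119.8 CPM, with 0 of 10 called by either tool and 2 at an unadjusted p under 0.05, the abundant Pecam1 at 0.33 (SE 0.13) and Kdr at 0.40 (SE 0.15). Natural killer cell markers were sparse, at 2.36 to 4.87 and 2.16 to 4.09 CPM in sum, with Nkg7 and Ncr1 the most abundant. Of 11 duct and basal epithelial markers tested, 0 were called by edgeR or DESeq2. Of these, 10 had negative log2 fold changes, and the median was -0.25. At an unadjusted p under 0.05, 3 were lower, against 961 of all 12885 genes tested. Elf5 and Sox9, the most abundant, had log2 fold changes of -0.07 (SE 0.12) and -0.15 (SE 0.19). The part of these cells in the levels of the factors was not tested, and the ratios given next are a description.

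**Figure D3:**
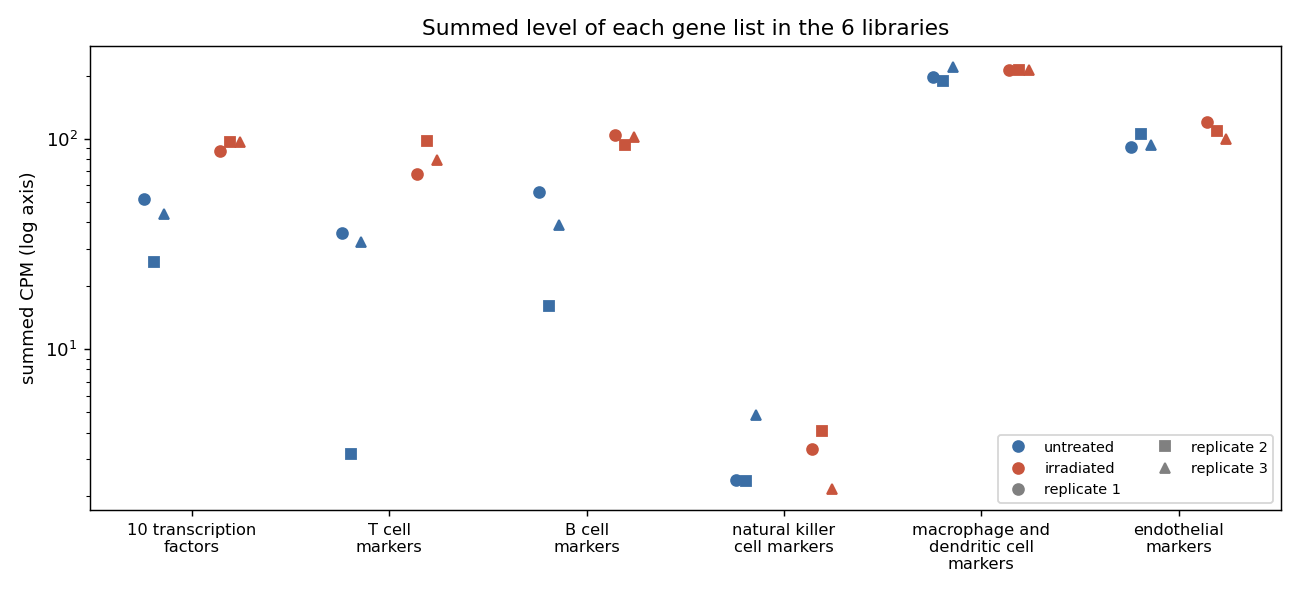
Summed CPM (log axis) of the 10 factors and of 5 marker lists in each library. The factors, T cell markers and B cell markers are lowest in untreated replicate 2 and higher in all irradiated libraries, while macrophage and dendritic cell markers stay between 187.9 and 219.8 CPM.

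Each factor was then set against the lymphocyte markers of its own library, T cell markers for Tcf7, Lef1, Ets1 and Runx3, B cell markers for Ikzf3, Irf8, Irf4, Spib and Bach2, and both for Ikzf1. On this scale 7 of the 10 overlapped between the groups and 3 were lower in each irradiated library. Among all genes tested 90.7% were lower per T cell marker count, 84.9% per B cell marker count and 88.7% per count of both. Irf8 stood at 7.65, 10.9 and 7.88 counts per 100 B cell marker counts in untreated and 8.94, 9.36 and 8.88 in irradiated libraries. For Ikzf3 the values were 4.85, 6.52 and 8.39 against 7.02, 5.90 and 7.10, and for Tcf7, per 100 T cell marker counts, 14.5, 27.8 and 16.4 against 17.3, 13.3 and 13.1. Ikzf1 stood at 4.76, 9.09 and 3.37 per 100 T and B cell marker counts against 5.83, 6.28 and 8.15. The high untreated values of Tcf7 and Ikzf1 are those of replicate 2, which rest on 36 T cell marker counts and 184 B cell marker counts, 68 of the latter from Blnk, an adaptor whose level differed little between the groups (log2 fold change -0.04).

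The factors that were lower on this scale were Ets1, Runx3 and Bach2. Ets1 stood at 55.3, 272.2 and 58.8 per 100 T cell marker counts against 38.8, 34.7 and 46.0, and Bach2 at 15.6, 60.9 and 13.2 per 100 B cell marker counts against 9.96, 10.3 and 8.28. With all libraries the mean log2 ratios of Ets1, Runx3 and Bach2 differed by -1.28, -1.40 and -1.30 between irradiated and untreated glands. Those of Spib, Ikzf1, Lef1, Irf8 and Ikzf3 differed by 0.76, 0.34, 0.07, 0.06 and 0.05, and those of Tcf7 and Irf4 by -0.38 and -0.86. Without untreated replicate 2 the differences were -0.53, -0.53 and -0.60 for Ets1, Runx3 and Bach2. They were then 0.74 for Ikzf1, 0.23 for Spib, 0.22 for Irf8, 0.06 for Ikzf3, -0.09 for Tcf7, -0.28 for Irf4 and -0.36 for Lef1. The largest positive difference was thus that of Spib with all libraries and that of Ikzf1 without untreated replicate 2.

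Of 10 genes shared by all leukocytes, DESeq2 called 6 higher, and 7 were higher at an unadjusted edgeR p under 0.05. The shares of all genes were 0.94% and 7.51%. By edgeR 2 of the 10 were called higher, Laptm5, a lysosomal membrane protein, and Arhgdib. Their log2 fold changes were 0.87 (SE 0.13) and 1.02 (SE 0.19). Laptm5 passed without untreated replicate 2, at 0.76, and without irradiated replicate 2, at 0.87, while Arhgdib passed in neither of these fits, at 0.86 and 0.89. Per count of these 10 genes, the irradiated libraries lay above all untreated ones for 5 factors, Ikzf1, Ikzf3, Irf8, Spib and Tcf7, against 1.35% of all genes, and the other 5 overlapped. Lcp1 made up 46.1% to 76.7% of that denominator and differed little between the groups (log2 fold change 0.21, SE 0.12). With Lcp1 left out, a choice made after seeing the data, Ikzf3 overlapped, and Ikzf1, Irf8, Spib and Tcf7 still lay above, where 0.512% of all genes did. Ikzf1 stood at 4.97, 4.03 and 2.90 counts per 100 of these leukocyte counts in untreated and 7.07, 7.56 and 9.73 in irradiated libraries. Irf8 stood at 4.88, 4.03 and 3.71 against 6.55, 5.52 and 5.98. Ets1, one of the 6 that overlapped, stood at 22.5, 19.8 and 22.9 against 18.6, 21.3 and 24.0.

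**Figure D4:**
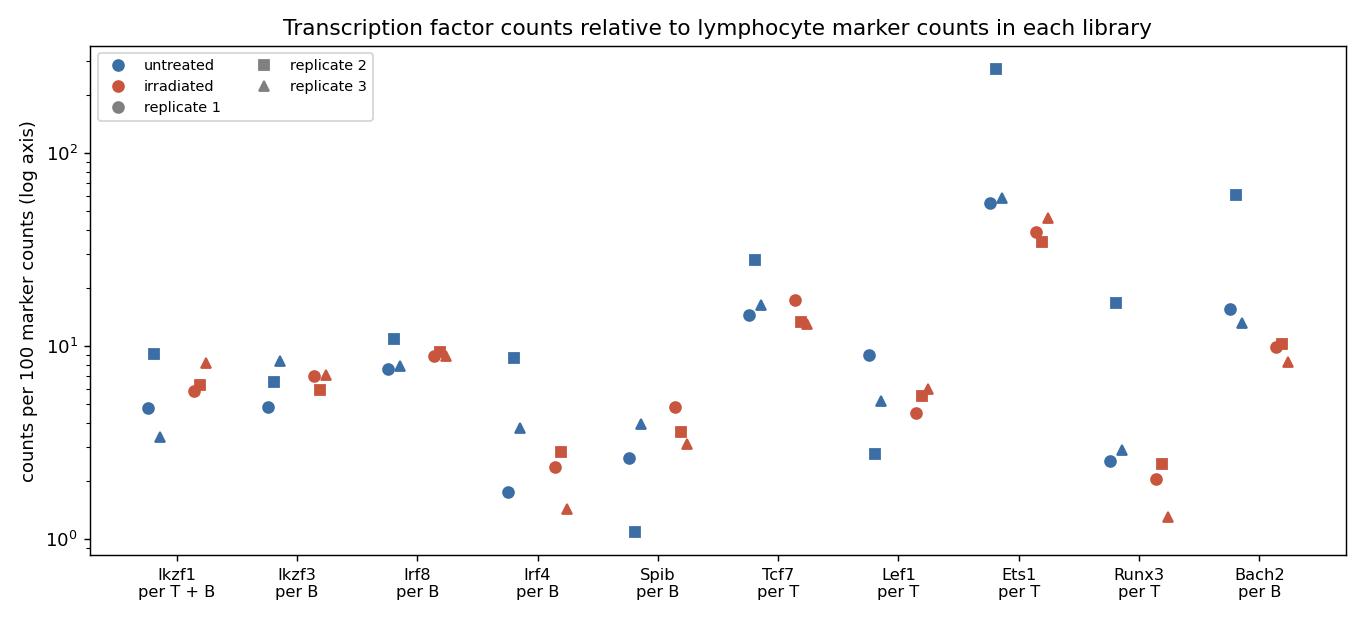
Counts of each factor per 100 counts of T cell markers, B cell markers or both in each library (log axis). Untreated replicate 2, with few marker counts, lies apart for Ets1, Runx3 and Bach2, and Irf8 keeps within 7.65 and 10.9 in all libraries.

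Relatives of the 10 within the same protein families were read next. Of 22 such genes 20 were tested, and 0 passed by edgeR or DESeq2. At an unadjusted p under 0.05, 1 was higher and 1 lower, against 968 and 961 of all 12885 genes tested. The median log2 fold change of the relatives was 0.08. Their summed level was 219.9 to 228.2 CPM in untreated and 226.2 to 234.6 CPM in irradiated glands. The largest differences were 0.76 (SE 0.33) for Irf5, a factor of macrophages and B cells, -0.69 (SE 0.46) for Ikzf5, 0.53 (SE 0.32) for Fli1, an ETS factor of blood and endothelium, and -0.34 (SE 0.21) for Tcf7l2, the TCF of epithelia. None of these passed.

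Among 31 other transcription factors of lymphocytes, 27 were tested and 0 passed by edgeR. At an unadjusted p under 0.05, 10 of them were higher and 1 lower, against 968 and 961 of all 12885 genes tested. DESeq2 called 1 of the 27, Bcl11b, a factor of T cell commitment. The median of the 27 was 0.20. The largest differences were those of Pax5, which fixes B cell identity, at 1.95 (SE 0.77), Pou2af1, a coactivator of B cells, at 1.74 (SE 0.64), Bcl11b at 1.63 (SE 0.40) and Myb at 1.05 (SE 0.47). Pax5 had 36, 1 and 16 counts in untreated and 77, 51 and 56 in irradiated libraries, and Pou2af1 17, 0 and 16 against 42, 22 and 35. Bcl11b had 21, 6 and 19 against 50, 42 and 33. Untreated replicate 2 was thus the lowest library for these 3 as well, and no irradiated library fell below an untreated one. Without it the log2 fold changes were 1.43 for Pax5, 1.20 for Pou2af1 and 1.30 for Bcl11b, and without irradiated replicate 2 they were 1.85, 1.78 and 1.38. None of these passed.

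The genes outside the list whose log2 CPM followed the mean standardized profile of the 10 factors most closely over the 6 libraries were Lcp2, an adaptor of T cell receptor signalling, Gm5113, Grem1, an inhibitor of bone morphogenetic proteins, Frs2, an adaptor of fibroblast growth factor receptors, Arhgap25, Mppe1, Fcrl1 and Sla, a Src-like adaptor of lymphocytes. Their Pearson correlations were 0.992 to 0.998, the highest among 12298 genes with a mean of at least 1 CPM. Their log2 fold changes ran from 0.30 for Frs2 to 3.18 for Grem1. The 6 libraries share a group difference and untreated replicate 2, and the values are given as a description.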

How the data were processed

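Each of the 6 libraries has 1 deposited table of unnormalised read counts, listed by Ensembl gene ID. The submitters' processing notes name bcl2fastq, HISAT2, HTSeq and the build mm10. Versions, annotation release and strand setting are not given in the sources used here. Reads assigned to no gene (32.5% to 40.7% of a library) were left out. Symbols matched 52403 of 52636 genes, and places and exon lengths came from GENCODE M21. No exon of the 10 factors overlaps another gene with over 2 counts in any library.

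Counts were tested with edgeR 4.0.16 in R 4.3.3 (TMM, filterByExpr with a minimum count of 10, robust quasi-likelihood, Benjamini-Hochberg threshold 0.05), after tests on simulated data. SEs were derived from each fold change and the F value of its test. TPM used exon length. DESeq2 1.42.0, limma 3.58.1, other scalings, no filter, a length and GC offset from mgcv 1.9.3 and leave-one-out sets were alternatives. The factors and gene lists were chosen with earlier results of these data known. Genes named beyond the 10 are those called in a list, the 4 largest other differences in each transcription factor list, the 2 most abundant genes of a marker list with no call, and the 8 most alike profiles. Others were named after their values were seen. Fits of list genes without either replicate 2 were added after seeing the data.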

Additional observations from a re-analysis of the deposited data

How the results depend on the processing

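All 10 factors had a positive log2 fold change in each of the 15 alternatives. The number called higher was 3 with all libraries, 2 to 4 when 1 library was left out, 2 with limma-voom, 2 without robust shrinkage, 5 with DESeq2 and 6 without the count filter, and the median log2 fold change was 1.00 to 1.72 when 1 library was left out. Without untreated replicate 2 and irradiated replicate 2 together, an alternative added after seeing the data, the median was 0.89 and 2 factors were called. Over all genes, 84 were called higher and 45 lower. The counts were 260 and 22 with scaling by library totals, which shifted the median of all genes to 0.14 and the share of higher calls from 65.1% to 92.2%, 121 and 70 with DESeq2, 21 and 5 without robust shrinkage, 20 and 5 with limma-voom, 279 and 239 without the filter, and 40 and 12 without both replicates 2. Leaving out 1 library gave 31 to 83 higher and 14 to 72 lower. With the replicate number as a block they were 39 and 14, and 3 factors were called. Deviations of same-numbered libraries correlated at 0.02, -0.11 and -0.11, and those of differently numbered ones at -0.03 to 0.12. With 3 libraries per group these values cannot settle whether the number pairs them. Per pan-leukocyte count in place of T cell marker count, the log2 difference was 0.54 for Ets1 and 0.42 for Runx3, against -1.28 and -1.40. Lcp1 is 46.1% to 76.7% of that denominator. Depth limits Spib, Irf4, Lef1 and Runx3, each under 80 counts in every library.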

Other observations

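Of the 4 tested genes of lymph node stroma and of the vessels by which lymphocytes enter, 1 was called higher: Cxcl13, the chemokine that draws B cells into follicles. It had 17, 9 and 15 counts in untreated replicates 1, 2 and 3 and 126, 66 and 79 in the irradiated ones, a log2 fold change of 2.85 (SE 0.29). It passed without untreated replicate 2, at 2.69, without irradiated replicate 2, at 2.83, and with DESeq2. Unlike Tcf7, Lef1 and Spib, it was not far below the other untreated libraries in replicate 2.

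Other genes of that list were named after their values were seen. Glycam1, a mucin of high endothelial venules, had 405, 6 and 337 counts in untreated and 918, 442 and 562 in irradiated libraries, with low counts in untreated replicate 2 as for Tcf7, Lef1 and Spib. Its log2 fold change was 1.52 (SE 1.09), which did not pass, and 0.96 (SE 0.167) without untreated replicate 2, which did. Without irradiated replicate 2 it was 1.54 (SE 1.29) and did not pass. Ccl21a, a chemokine of lymph node stroma, had 0 to 2 counts in 5 libraries and 8 in irradiated replicate 2. Ccl19, of the same stroma, had 57 counts in irradiated replicate 1 and 0 to 8 in the others. Madcam1, an adhesion molecule of mucosal vessels, had 0 to 4 counts. Chst4 and Tnfsf11, too sparse to be tested, were higher in each irradiated library. Chst4 had 1, 0 and 0 counts against 5, 5 and 3, and Tnfsf11 1, 0 and 2 against 5, 12 and 8. The tested Mfge8 and Cr1l had log2 fold changes of -0.20 (SE 0.13) and -0.03 (SE 0.11), and neither passed. Whether lymph node tissue was part of any sample was not tested.

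Of 12 markers of plasma cells, which Irf4 helps to form, 5 were tested and 0 were called by edgeR or DESeq2, with 0 at an unadjusted p under 0.05. The most abundant, Xbp1 and Derl3, genes of secretory cells at large, had log2 fold changes of -0.28 (SE 0.16) and -0.09 (SE 0.12). The others below were named after their values were seen. Igha, the heavy chain of immunoglobulin A, had 222, 16 and 40 counts in untreated and 22, 10 and 44 in irradiated libraries, and Jchain 88, 11 and 5 against 13, 10 and 14. Both were highest in untreated replicate 1. Mzb1 and Iglc2, too sparse to be tested, were higher in each irradiated library, at 3, 1 and 3 counts against 5, 5 and 9 and at 1, 0 and 2 against 13, 6 and 5.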
